A study of Saccharomyces cerevisiae with 18 samples.

Results

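The measurements are 3 of the 18 two-colour arrays of the series, chosen by their titles: those on which RNA from 7-day-old colonies of the feral *Saccharomyces cerevisiae* strain BR-RF was hybridised together with RNA from colonies of the wild strain BR-F of the same age. BR-F is a wild isolate that forms structured biofilm colonies, BR-S is a derivative of it that lost this structure during domestication and forms smooth colonies, and BR-RF is 1 subclone of BR-S that regained structured colonies after long starvation, so that it stands for that clone and not for feral strains in general. Both strains grew without any treatment on agar with glycerol and yeast extract, and poly(A) RNA from whole colonies was labelled. Arrays 1 and 2 carried the same pair of RNAs with the dyes swapped and together form biological replicate 1, and array 3 carried biological replicate 2. A fit without array 3 therefore rests on biological replicate 1 alone. BR-RF was labelled with Cy5 on array 1 and with Cy3 on arrays 2 and 3. All values are log2 ratios of BR-RF over BR-F, so that 1.00 stands for a 2-fold higher and the same value below 0 for a 2-fold lower level in the feral strain, and an error after ± is the SE of the fit with n = 2 biological replicates. A gene was called where limma's test, adjusted by the Benjamini-Hochberg method over all genes tested, gave an adjusted p below 0.05. RNA was taken from all cells of a colony, so fewer cells that express a gene and less of its RNA in each cell cannot be told apart.

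Glycerol cannot be fermented by yeast, so cells on this medium live by respiration: electrons pass through the mitochondrial respiratory chain, and the glyoxylate cycle and gluconeogenesis build sugars from smaller molecules. Genes for other sugars, for poor nitrogen sources and for scavenging sulfur and metals are switched on only when the preferred nutrient runs short. Genes of the cytosolic ribosome form a large set whose transcription follows the growth rate of the cell. Structured colonies of wild yeast depend on the adhesin Flo11p, which holds cells to each other and to the agar.

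Of 4984 genes measured in both biological replicates, 389 (7.8%) were higher and 371 (7.44%) lower in the feral strain on day 7, so that 760 (15.2%) were called. Among them 144 of the higher and 166 of the lower genes differed by at least 2-fold, and 33 of all called genes by at least 4-fold. A ratio was measured on all 3 arrays for 674 of the called genes, and 651 of these had the same sign on each array. The median ratio over all genes tested was -0.01. The plot of the 2 biological replicates against each other shows where the named genes fall.

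**Figure D1:**
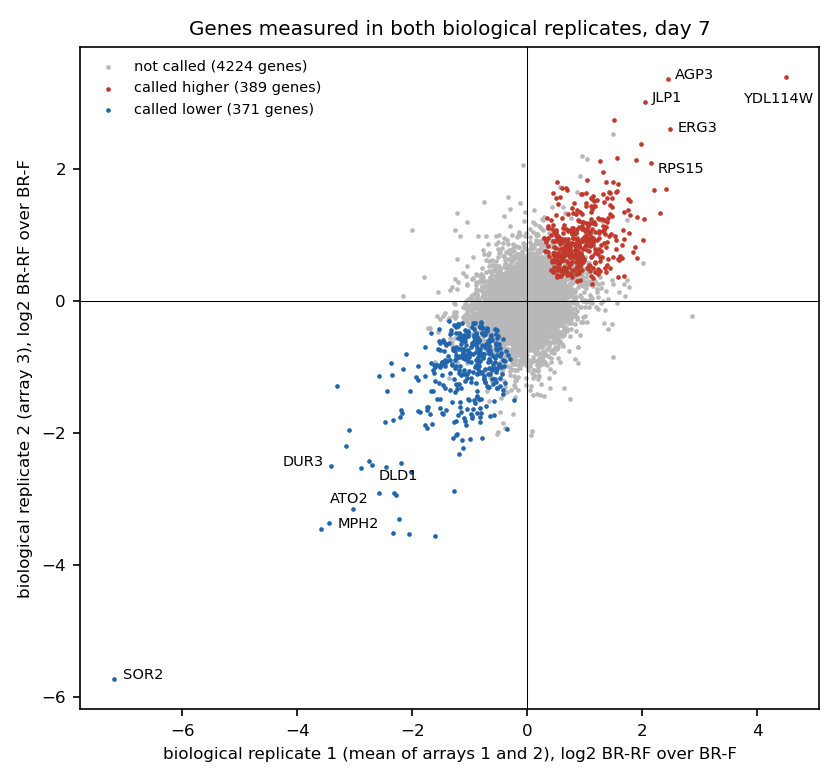
Log2 ratio of BR-RF over BR-F on day 7 in biological replicate 1 (mean of arrays 1 and 2, horizontal axis) and in biological replicate 2 (array 3, vertical axis); each point is 1 of the 4984 genes tested, red where it was called higher (389 genes), blue where it was called lower (371 genes) and grey otherwise. Called genes lie where both replicates have the same sign, with *YDL114W* and *AGP3* among the highest ratios and *SOR2* far below all others.

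The 3 arrays were not of equal quality. Over genes the ratios of arrays 2 and 3 correlated with r = 0.779 although they came from different RNAs, while those of arrays 1 and 2, which shared their RNAs, correlated with r = 0.538, and those of arrays 1 and 3 with r = 0.314. Arrays 2 and 3 also shared their dye orientation, which was reversed on array 1. In these correlations dye effects of single genes and the quality of array 1 cannot be told apart. Ratios spread more widely on array 1 (SD 0.845) than on arrays 2 and 3 (0.546 and 0.603), and fewer genes could be measured on it (4599, against 5092 and 5061). On array 1 the median ratio of the spots fell along the slide from 0.54 in the first row of print blocks to -0.77 in the last, and on array 3 it went from -0.46 to 0.23. A separate loess curve for each print block centres every block, so that each such median lay within ±0.03 by construction. With it 699 of the 760 calls remained. Genes of chromosomes I, II and III had medians of -0.80, -0.68 and -0.67 on array 1, against medians between -0.17 and 0.11 on arrays 2 and 3. Of the 537 genes tested on these 3 chromosomes 10 were called higher and 58 lower, and without array 1 the numbers were 20 and 66. With a loess curve for each print block 15 and 101 were called, and the array 1 medians of these chromosomes remained at -0.66, -0.55 and -0.55. Genes described below that lie there include *SEO1*, *GDH3* and *CYS3* (chromosome I) and *CIT2* and *PAU3* (III). On chromosome II lie, among others, *REI1*, *COR1*, *ATP1*, *ATP3*, *MAL31*, *MAL32*, *BAP2*, *TIP1*, *MNN2*, *HSP26* and *URA7*. Signals were taken after subtraction of the local background. Their medians were between 0.898 and 2.97 times that background in either channel, so that many spots were dim. For 89 of the 760 called genes the strain with the lower level gave a signal smaller than the local background on every array that measured the gene. Such a signal, called under the background below, is still above 0, but the size of the ratio is poorly known. For such genes the fold written as "at least" was computed with that signal raised to the value of the local background. That value is a chosen floor and not a limit of detection. It gave 11 genes of at least 2-fold and left 29 with no bound, as their ratio took the other sign. Markers of mating type showed no difference that passed the test in any of the 5 *MATa* markers measured by limma (0 called, 0 at an unadjusted p under 0.05), and among 4 markers of *MATalpha* cells only *MF(ALPHA)2*, a pheromone gene, was higher, at 0.93 ± 0.16 (adjusted p = 0.00277). Of 16 markers of sporulating cells measured, *SPO21* and *SPS4* were called higher (1.07 ± 0.23, at least 1.28-fold with a BR-F signal under the background, and 0.81 ± 0.20) and *IME1*, the master regulator of meiosis, was lower (-1.16 ± 0.23, adjusted p = 0.00624), with a median of 0.26. Of 10 haploid markers only *STE4* was called (0.76 ± 0.18, at least 1.12-fold). Without array 3 *SPO21*, *SPS4* and *STE4* lost their calls (1.08, 0.83 and 0.54), and *SPO21* and *STE4* did so with median centring or a dye term, *STE4* also when this couple and day was fitted alone. Of 7 markers of daughter cells, which lay between -0.54 and 0.40, limma called 0, with 1 higher and 1 lower at an unadjusted p under 0.05. The part of these differences in the results below was not tested.

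**Figure D2:**
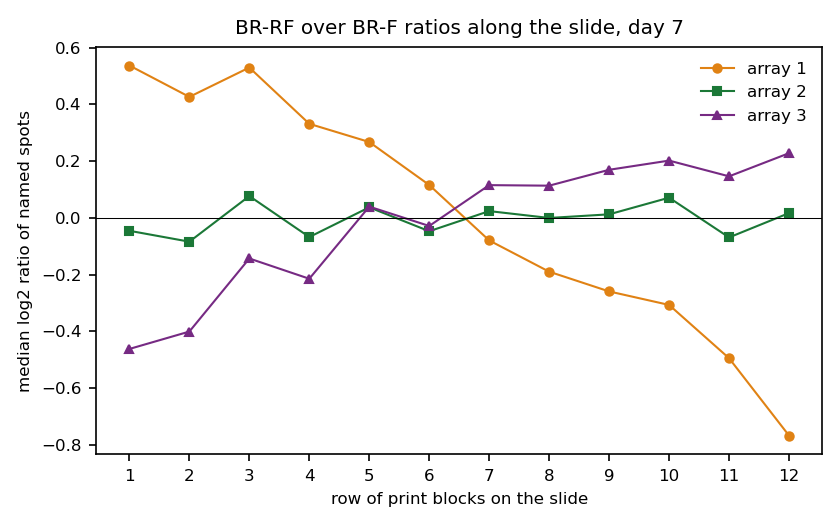
Median log2 ratio of BR-RF over BR-F of all named spots (vertical axis) in each of the 12 rows of print blocks along the slide (horizontal axis), for each of the 3 arrays of day 7 after loess over the whole array. Array 1 fell from 0.54 to -0.77 along the slide, array 3 went from -0.46 to 0.23, and array 2 stayed between -0.08 and 0.08.

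Genes of the cytosolic ribosome were higher in the feral strain. Of 130 ribosomal protein genes tested, 85 (65.4%, against 7.8% of all genes) were called higher, 126 had a ratio above 0, and the median ratio was 0.89, with medians of 1.19, 0.96 and 0.82 on arrays 1, 2 and 3. *RPS15*, a protein of the small ribosomal subunit, measured 2.28, 2.01 and 2.10 on the 3 arrays and was 4.36-fold higher (2.13 ± 0.22, adjusted p = 0.000328). *RPS4A*, of the same subunit, measured 1.36, 1.61 and 1.81 (1.65 ± 0.17, adjusted p = 0.000328). *RPL18B* and *RPL22A*, of the large subunit, reached 1.64 ± 0.20 and 1.59 ± 0.20, and each was above 1.2 on every array. Many ribosomal protein genes have a near-identical copy, and their spots may share signal. The cap-binding initiation factor eIF4E, encoded by *CDC33*, followed with 1.56, 1.54 and 1.66 (1.61 ± 0.16, adjusted p = 0.000231), 1 of 6 genes called higher among 38 for initiation and elongation, a number that fell to 1 without array 2 and to 2 without array 3. *EFT1* and *EFT2*, which encode the same elongation factor and whose spots share their target, were at 1.00 ± 0.23 and 0.66 ± 0.18. They were close to 0 on array 1 (0.06 and -0.13) and between 0.87 and 1.48 on the others. Of the 38 genes for initiation and elongation 15.8% were called higher, against 7.8% of all genes.

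Factors that build ribosomes did not move as a block. Of 87 ribosome biogenesis genes 5 (5.75%) were higher and 2 (2.3%) lower, with a median of 0.11. Both shares were below the 7.8% and 7.44% of all genes. The number higher was 8 without array 1 and 2 without array 3. *BRX1* and *NSA2*, which act in the assembly of the large subunit, were at 1.55 ± 0.20 and 1.04 ± 0.17, while *REI1*, needed for its last cytoplasmic steps, was at -1.35 ± 0.25 (adjusted p = 0.00469) and below -1 on every array. Of 63 mitochondrial ribosomal protein genes 1 (1.59%) was higher and 2 (3.17%) lower (median -0.14). *RRN3*, the initiation factor of RNA polymerase I, was higher (1.02 ± 0.19, adjusted p = 0.00408), as 1 of 2 among 26 genes of RNA polymerases I and III. That share of 7.69% is close to the 7.8% of all genes. Regulators of ribosomal protein genes were among the called genes as well: the activator gene *SFP1* was called lower (-0.83 ± 0.22, adjusted p = 0.0363) with a signal under the background that leaves no bound, and lost its call with median centring (-0.85). The co-repressor gene *CRF1* was higher, at 1.27, 1.38 and 1.14 (1.23 ± 0.16, adjusted p = 0.000963). On day 4 the ribosomal protein genes had a median of 0.57 in the same couple and 40 of 129 were called higher (2.82% of all genes), and on day 7 their medians over BR-S were 0.39 in BR-RF and -0.58 in BR-F. With a loess curve for each print block *RPP2A*, another ribosomal protein gene, lost its call (0.94, adjusted p = 0.0589), and without array 3 *EFT1* and *RRN3* lost theirs (0.53 and 0.95), *EFT1* also without array 2 (0.77). *EFT2* lost its call under 6 settings, with ratios from 0.37 to 0.66.

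**Figure D3:**
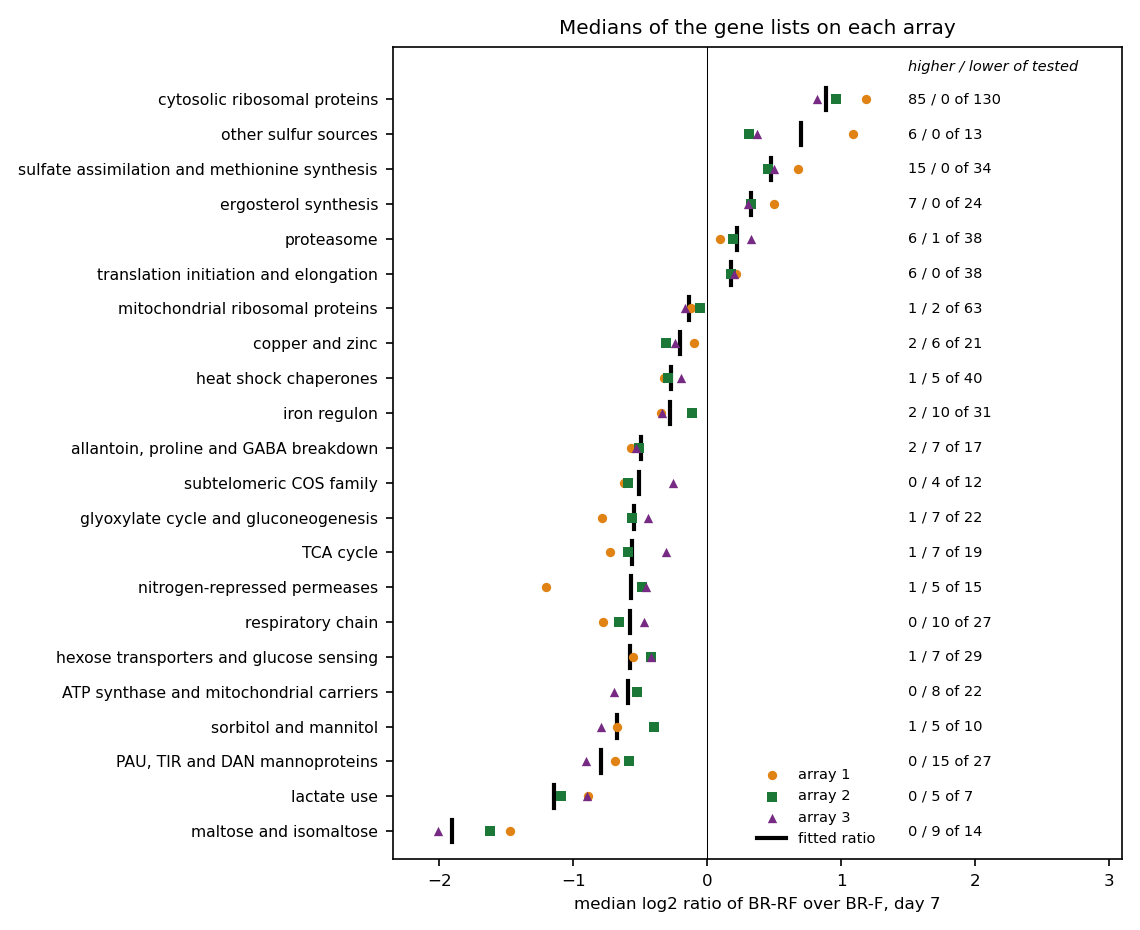
Median log2 ratio of BR-RF over BR-F on day 7 (horizontal axis) of 22 gene lists, as the median of the fitted ratios (black bar) and of the ratios on each array (symbols); the numbers at the right are members called higher and lower of those tested. Cytosolic ribosomal proteins had the highest median (0.89) and genes of maltose and isomaltose use the lowest (-1.90).

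Many genes for taking up and assimilating sulfur were called higher in BR-RF on day 7. Of 34 genes of sulfate assimilation and methionine synthesis tested 15 (44.1%) were called higher and 27 had a ratio above 0 (median 0.48), and of 13 genes for other sulfur sources 6 (46.2%) were called higher (median 0.70). *JLP1*, the dioxygenase that releases sulfite from sulfonates, measured 2.00, 2.08 and 3.03 and was 5.79-fold higher (2.53 ± 0.31, adjusted p = 0.000749). The genes next to it on chromosome XII were high on all 3 arrays as well. *YLL056C*, a gene of unknown function, measured 1.94, 2.02 and 2.38 (2.18 ± 0.24, adjusted p = 0.00093), and the cysteine transporter gene *YCT1* 0.90, 2.23 and 2.17 (1.87 ± 0.24, adjusted p = 0.000841). Further along the same arm *MMP1*, the permease for S-methylmethionine, and *MHT1*, the enzyme that uses it to make methionine, were at 1.11 ± 0.26 and 0.91 ± 0.24. *SOA1*, a transporter of sulfonates and other sulfur compounds, was the most uneven of these genes, with 3.86, 0.96 and 1.71 (2.06 ± 0.29, adjusted p = 0.00328), and as its BR-F signal was under the background, it was at least 2.92-fold higher. Its neighbour *YIL165C*, related to nitrilases, measured 2.79, 1.61 and 1.69 (1.95 ± 0.26). *SEO1*, a putative permease, measured 1.21, 1.81 and 2.75 (2.13 ± 0.26, adjusted p = 0.000794).

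Within the sulfate pathway the calls covered its first and its last steps. *MET3*, the ATP sulfurylase that activates sulfate, was at 0.85, 0.56 and 1.07 (0.88 ± 0.16, adjusted p = 0.0041), and *MET14* and *MET5*, which act after it, were at 0.78 ± 0.20 and 0.79 ± 0.20 (*MET5* by at least 1.21-fold, with a BR-F signal under the background). *MET17*, which joins sulfide to the carbon chain of homocysteine, measured 1.82, 1.15 and 1.43 (1.46 ± 0.17, adjusted p = 0.000585), and *MET2*, which makes that chain ready, 0.82, 1.22 and 1.65 (1.33 ± 0.19, adjusted p = 0.0013). *HOM6*, which makes homoserine, was at 1.00 ± 0.13. *MET22*, the phosphatase that removes a by-product of sulfate reduction, was the highest of the list, at 2.75, 1.87 and 1.34 (1.83 ± 0.25, adjusted p = 0.0012). The methionine permease gene *MUP1* (0.97 ± 0.18), the oligopeptide and glutathione transporter gene *OPT1* (1.02 ± 0.24) and *PDC6*, a minor pyruvate decarboxylase poor in sulfur amino acids (1.38 ± 0.35), were higher too. The sulfate permease gene *SUL1* measured -0.79, 0.65 and 2.07 and did not pass the test (1.00 ± 0.42, adjusted p = 0.136). The activator gene *MET4* was at 0.05 ± 0.13 (adjusted p = 0.865), and *MET28*, its cofactor, was called at 0.97 ± 0.22. *CYS3*, which makes cysteine, was called at 1.07 ± 0.25, but its arrays gave -0.79, 1.94 and 1.58, so that the dye swap of one RNA disagreed in sign. It lost its call without array 2 (0.39) and with the arrays as 3 replicates (0.91, adjusted p = 0.31), and *CYS3*, *MET3*, *MET14*, *MET5* and *PDC6* lost theirs without array 3 (0.57 to 1.48), when 8 of the 34 genes were called. *MET14* and *MET5* also lost their calls with a dye term (0.65 and 0.69), *MET14* and *MHT1* without array 1 (0.50 and 0.55), and *MUP1* when spots under the background were left out (0.50).

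The sulfur lists had medians above 0 on day 7 and below 0 on day 4. On day 4 the medians of the 2 lists in the same couple were -0.25 and -0.20, and the difference between the days was itself called for 5 of 34 and 3 of 12 members, all of them higher on day 7, against 0.355% of all genes. With a gene-specific dye term the difference was called for *JLP1* and *MET17* among these 8. Over BR-S the medians on day 7 were 0.03 and 0.16 in BR-RF and -0.19 and -0.17 in BR-F.

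**Figure D4:**
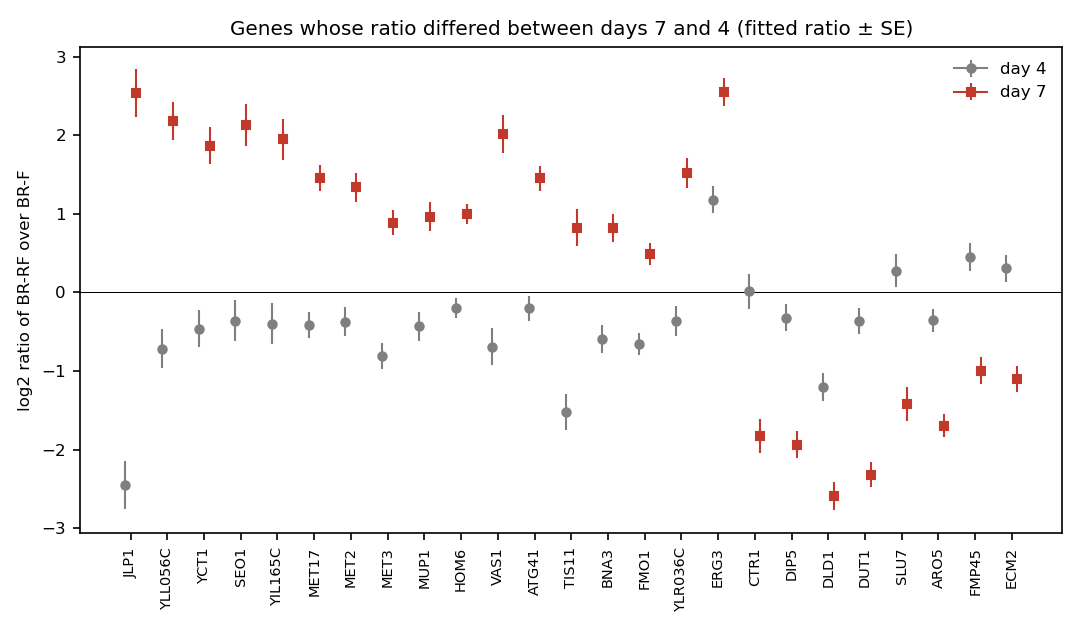
Log2 ratio of BR-RF over BR-F (vertical axis) on day 4 (grey) and day 7 (red) for the 25 genes whose ratio was called different between the days; points are fitted ratios and bars their SE. The first 10 genes, from *JLP1* to *HOM6*, include 8 members of the sulfur lists, each below 0 on day 4 and above 0 on day 7.

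Genes of ergosterol synthesis, the pathway that makes the main sterol of the yeast membrane, were called higher in 7 of 24 cases (29.2%, against 7.8% of all genes), and 20 of the 24 had a ratio above 0. *ERG3*, a sterol desaturase late in the pathway, measured 2.71, 2.26 and 2.61 and was 5.86-fold higher (2.55 ± 0.17, adjusted p = 2.51e-05). *ERG11*, the lanosterol demethylase that azole drugs inhibit, measured 1.16, 0.90 and 1.84 (1.44 ± 0.22, adjusted p = 0.00203), and *ERG5*, a later desaturase, 1.69, 0.98 and 1.23 (1.28 ± 0.19, adjusted p = 0.00177). These values lay above 0.8 on every array. The other called genes were *ERG1*, the squalene epoxidase, at 0.50, 0.50 and 1.57 (1.03 ± 0.28, adjusted p = 0.0326), *ERG9*, the squalene synthase, at 0.95 ± 0.18, *ERG2*, a sterol isomerase, at 0.91 ± 0.18, and *ERG28*, a scaffold of the pathway's enzymes, at 0.81 ± 0.16. Among genes of sterol uptake, *SUT1*, a regulator of uptake, was lower at -2.64, -1.15 and -1.67 (-1.78 ± 0.23, adjusted p = 0.000891), and the transporter gene *AUS1*, measured only on arrays 2 and 3 (0.83 and 0.86), was higher. The median of the synthesis genes was 0.33, and 0.21 without genes of chromosome IX, the left arm of XV and the right arm of XII, where *ERG3* lies. *ERG1* lost its call with a gene-specific dye term (0.89, adjusted p = 0.0732), and *ERG1*, *ERG9* and *AUS1* lost theirs without array 3 (0.50 to 0.83).

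Among genes that serve respiration and the use of non-fermentable carbon nearly all calls were lower in BR-RF. Of 7 genes of lactate use 5 (71.4%, against 7.44% of all genes) were called lower and all 7 had a ratio below 0 (median -1.14). *DLD1*, the mitochondrial D-lactate dehydrogenase, measured -2.83, -2.58 and -2.48 and was 6.04-fold lower (-2.60 ± 0.18, adjusted p = 2.51e-05). *JEN1*, the lactate permease, measured -1.87, -1.30 and -0.97 (-1.28 ± 0.19, adjusted p = 0.0019), and *CYB2*, the L-lactate dehydrogenase, -0.83, -0.80 and -0.76 (-0.79 ± 0.19, adjusted p = 0.0169). In the list of the glyoxylate cycle and gluconeogenesis 7 of 22 genes (31.8%) were called lower and 1 higher (median -0.55). Both enzymes particular to gluconeogenesis were among them: *FBP1*, fructose-bisphosphatase, at -2.87, -2.07 and -1.82 (-2.15 ± 0.29, adjusted p = 0.00108), and *PCK1*, phosphoenolpyruvate carboxykinase, at -1.86, -1.50 and -1.35 (-1.52 ± 0.25, adjusted p = 0.00248). *CIT2*, the peroxisomal citrate synthase, measured -3.16, -1.99 and -1.14 (-1.86 ± 0.34). The other lower calls of this list included carnitine genes (-1.02 to -0.82), so the list is wider than its name. The enzymes that define the glyoxylate cycle, *ICL1* and *MLS1*, had ratios of -0.42 ± 0.20 and -0.55 ± 0.25 that were below 0 on all 3 arrays and did not pass the test (adjusted p = 0.191 and 0.167). *ACH1*, which transfers coenzyme A between acetate and succinate, was measured on arrays 2 and 3 only, at -2.34 and -1.80 (-2.07 ± 0.26). The gene called higher in the list of the glyoxylate cycle and gluconeogenesis was *MDH2*, the cytosolic malate dehydrogenase. It measured 1.18, 0.05 and 0.43 (0.52 ± 0.16, adjusted p = 0.0484). It lies on the left arm of chromosome XV, where 62 of 143 genes tested were called higher, with a median of 0.64.

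In the mitochondrion the same direction prevailed among genes of the TCA cycle, the respiratory chain, and the ATP synthase and carriers. Of 19 genes of the TCA cycle 7 (36.8%) were lower, among them *CIT3*, a mitochondrial citrate synthase (-2.46, -1.02 and -1.60, fitted at -1.67 ± 0.26 and at least 1.87-fold lower), *SDH1*, the catalytic subunit of succinate dehydrogenase (-2.17, -0.85 and -0.96, fitted at -1.23 ± 0.20), and *FUM1*, fumarase (-0.99 ± 0.17). *SHH3*, a paralogue of another succinate dehydrogenase subunit, was higher, at 1.39, 0.75 and 0.76 (0.91 ± 0.15, adjusted p = 0.00279). Of 27 genes of the respiratory chain 10 (37.0%) were lower and 2 had a ratio above 0 (median -0.57). These lists overlap: the called cytochrome c genes were also counted under lactate use. The called succinate dehydrogenase genes were also counted in the TCA cycle. *COX8*, a subunit of cytochrome c oxidase, measured -1.18, -1.85 and -1.62 (-1.57 ± 0.14, adjusted p = 0.000127). *COR1* and *QCR7*, of the cytochrome bc1 complex, were at -1.11 ± 0.18 and -0.83 ± 0.17, and *CYC1*, the main cytochrome c, at -1.34 ± 0.19. Of 22 genes of the ATP synthase and of mitochondrial carriers all had a ratio below 0 and 8 (36.4%) were called. The 3 large subunits of the ATP synthase named here, *ATP1*, *ATP2* and *ATP3*, were at -1.12 ± 0.16, -0.90 ± 0.16 and -1.18 ± 0.23, each below -0.80 on every array. *ATP1* and *ATP3* lie on chromosome II, whose genes had a median of -0.68 on array 1. *MIR1*, the phosphate carrier, measured -0.78, -1.18 and -1.70 (-1.34 ± 0.24). *HAP4*, the activator subunit that drives these genes on non-fermentable carbon, was at -0.45, -0.66 and -0.92 (-0.74 ± 0.20, adjusted p = 0.0281). It belongs to a list of 42 genes of respiratory assembly and HAP regulators. Of that list 4 (9.52%, against 7.44% of all genes) were called lower and 0 higher. In it 13 genes had a ratio above 0, and the median was -0.10. On day 4 the medians of these 4 groups (glyoxylate cycle and gluconeogenesis, TCA cycle, respiratory chain, ATP synthase and carriers) were -0.40, -0.52, -0.27 and -0.43 in the same couple, and over BR-S on day 7 they were 0.36, 0.42, 0.20 and 0.52 in BR-F and -0.18, -0.13, -0.48 and -0.06 in BR-RF. *MDH2* lost its call under 9 settings, among them the deposited ratios (0.51, adjusted p = 0.132) and without array 1 (0.24), and *HAP4* lost its without array 2 (-0.69), with a dye term (-0.68) and in 2 other settings. Without array 3 *CYB2*, *MIR1*, *HAP4* and *MDH2* lost theirs, with ratios from -0.98 to 0.61.

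**Figure D5:**
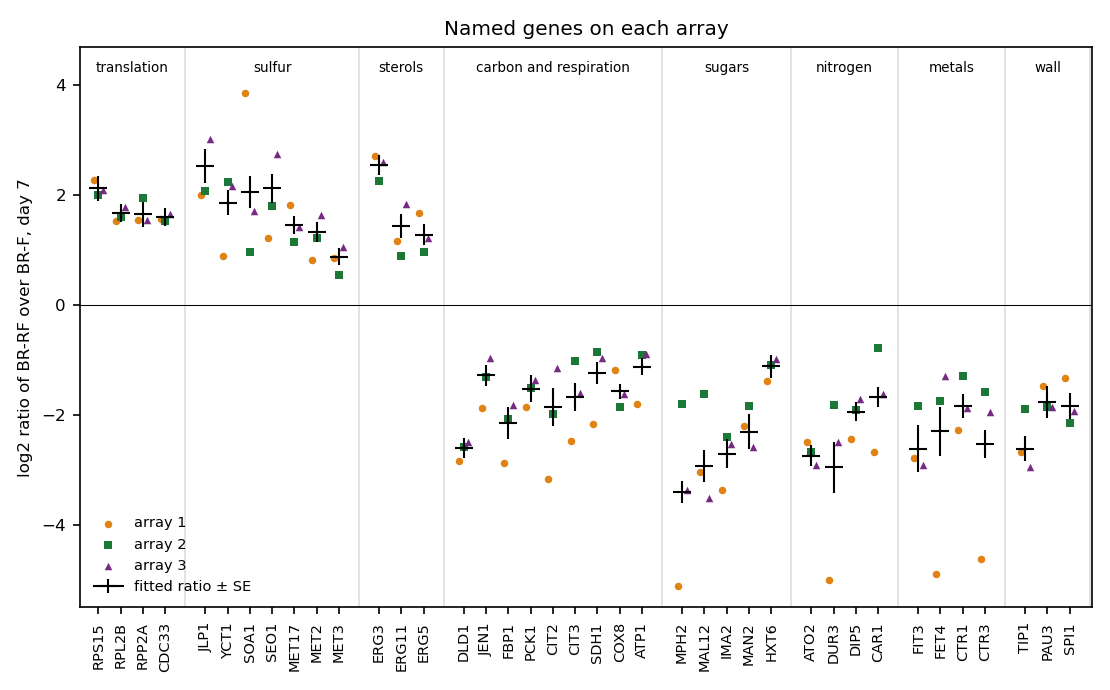
Log2 ratio of BR-RF over BR-F on day 7 (vertical axis) of 39 genes described in the text on array 1 (circle), array 2 (square) and array 3 (triangle), with the fitted ratio and its SE (black). The genes shown were chosen from the called genes, many of them because they had 1 sign on all 3 arrays. Their agreement in sign is therefore no finding. Called genes whose arrays disagreed, such as *CYS3* and *AFT1*, and called genes against the direction of their group, such as *MDH2* and *AGP3*, are not shown. Wide gaps between arrays appear where array 1 fell below -4, as for *MPH2*, *DUR3*, *FET4* and *CTR3*.

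Genes for the use of maltose and isomaltose showed the lowest list median of all, at -1.90, with 9 of 14 (64.3%) called lower. *MPH2*, a maltose permease near a chromosome end, measured -5.10, -1.80 and -3.36 (-3.41 ± 0.20, adjusted p = 2.51e-05), and with a BR-RF signal under the background it was at least 3.18-fold lower. *MAL12*, a maltase, measured -3.04, -1.62 and -3.52 (-2.92 ± 0.29, adjusted p = 0.000231) and was at least 3.62-fold lower. The isomaltase genes *IMA2* and *IMA4* measured -3.37, -2.40 and -2.52 (-2.70 ± 0.27) and -3.27, -2.25 and -2.42 (-2.59 ± 0.21). The maltose permease gene *MAL31* (-2.79 ± 0.45, at least 2.05-fold) and the more distant isomaltase gene *IMA5* (-1.16 ± 0.22) were lower as well. The activator genes *MAL13* and *MAL33* were at 0.07 ± 0.28 and 0.04 ± 0.17 (adjusted p = 0.913 and 0.9). Members of these families are near-identical copies in different places, so that several of these ratios may be readings of the same RNA. In the same couple the list was at -1.76 on day 4, and on day 7 its median over BR-S was 1.11 in BR-F and -0.96 in BR-RF. Without array 3, 6 of the 14 genes were called, and *MAL31*, *MAL32* and *IMA1* were not, nor was *IMA5* (-0.72), with *MAL32* at -2.02 also lost without array 2.

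Of 10 genes for sorbitol and mannitol 5 were called lower and 1 higher. *SOR1* and *SOR2*, near-identical sorbitol dehydrogenases, were measured on arrays 2 and 3 only, at -3.03 and -3.15 (-3.09 ± 0.57, adjusted p = 0.00677) and at -7.18 and -5.73 (-6.46 ± 0.96, adjusted p = 0.00274). The size of the *SOR2* ratio is poorly known: its BR-RF signal was under the local background, a spot was saturated on both arrays, the bound was at least 2.21-fold, and a loess curve for each print block gave -2.93 (adjusted p = 0.158). *MAN2*, a mannitol dehydrogenase, measured -2.20, -1.84 and -2.59 (-2.30 ± 0.32, adjusted p = 0.00129). Of 29 genes of hexose transport and glucose sensing 7 (24.1%) were lower and 1 higher (median -0.58). The high-affinity transporter genes *HXT6* and *HXT7*, whose spots cannot be told apart, measured -1.38, -1.09 and -0.99 (-1.11 ± 0.21) and -1.44, -1.04 and -0.86 (-1.05 ± 0.25), and the low-affinity transporter gene *HXT3* was at -0.98 ± 0.19. *HXT16*, a relative that carries sugar alcohols, was higher, at 0.79, 0.89 and 1.05 (0.94 ± 0.18, adjusted p = 0.0089), and lost its call with median centring (0.50). It was counted in both lists as the gene called higher. The hexose transport list was lower over BR-S in both strains on day 7, with medians of -1.06 in BR-RF and -0.57 in BR-F. Without array 3, 3 of these 29 genes and 2 of the 10 sugar alcohol genes were called lower (3 of the 10 without array 1 or 2), and *SOR1*, *HXT7*, *HXT10* and *HXT16* lost their calls.

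Among genes for the uptake and breakdown of nitrogen sources more were called lower than higher in BR-RF, and most did not pass the test. Of 15 permease genes subject to nitrogen repression 5 (33.3%) were lower and 1 higher (median -0.57). *DUR3*, the urea permease, measured -5.00, -1.81 and -2.50 (-2.95 ± 0.47, adjusted p = 0.00268), and *DIP5*, which carries acidic amino acids, -2.44, -1.90 and -1.70 (-1.94 ± 0.17, adjusted p = 0.000127). *AGP3*, an amino acid permease near a chromosome end, stood alone in the other direction, at 2.45 and 3.38 on arrays 2 and 3 and with no value on array 1 (2.91 ± 0.26, adjusted p = 0.000728), and was at least 4.5-fold higher. The general amino acid permease gene *GAP1* and the ammonium permease gene *MEP2* were below 0 on every array, at -0.40 ± 0.25 and -0.57 ± 0.28, and did not pass the test (adjusted p = 0.333 and 0.216). *BAP2* and *BAP3*, permeases for branched-chain amino acids, were lower at -1.77 ± 0.15 and -1.92 ± 0.39 (*BAP3* by at least 1.08-fold), and the peptide transporter gene *PTR2* at -1.35 ± 0.21 (at least 1.76-fold). *BAP2* and *BAP3* belong to 17 amino acid permease genes outside nitrogen repression. Of these 4 (23.5%) were called higher and 4 (23.5%) lower, with a median of 0.18. Over BR-S the nitrogen-repressed permeases had day 7 medians of 1.39 for BR-F and 0.54 for BR-RF.

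*ATO2*, one of a family of transporters linked to ammonium export in ageing colonies, measured -2.48, -2.68 and -2.91 and was 6.7-fold lower (-2.74 ± 0.19, adjusted p = 2.51e-05). On day 7 its ratio over BR-S was 3.42 for the wild and 0.84 for the feral strain. Its relatives did not pass the test: *ADY2* measured 1.05, -1.96 and -1.46 (-0.96 ± 0.46, adjusted p = 0.199) and *ATO3* was at -0.11 ± 0.16 (adjusted p = 0.704). Of 17 genes that break down allantoin, proline and GABA or assimilate ammonium 7 (41.2%) were lower and 2 higher. Arginase, encoded by *CAR1*, measured -2.67, -0.78 and -1.61 (-1.67 ± 0.18, adjusted p = 0.00039), and proline oxidase, encoded by *PUT1*, -0.54, -1.95 and -1.81 (-1.53 ± 0.28, adjusted p = 0.00404). The glutamate dehydrogenases of ammonium assimilation were lower in both forms, *GDH1* at -0.98 ± 0.17 and *GDH3* at -1.28 ± 0.20. *BAT2*, the cytosolic branched-chain aminotransferase, and *ALT2*, a relative of alanine aminotransferase, were at -1.31 ± 0.21 and -1.53 ± 0.20. They belong to 57 genes of amino acid synthesis, of which 7 (12.3%) were lower and 5 (8.77%) higher, with a median of 0.02. Without array 3 *PUT1* lost its call (-1.25, adjusted p = 0.0776), and 4 of the 17 genes were called lower.

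Of the genes of metal uptake and use most did not pass the test, and more were called lower than higher. Of 31 genes of the iron regulon 10 (32.3%) were lower and 2 higher. The mannoprotein genes *FIT1*, *FIT2* and *FIT3*, whose products hold iron-binding siderophores in the cell wall, were called at -1.50 ± 0.20, -1.11 ± 0.19 and -2.61 ± 0.43, the first of them with no bound at the background. *FIT3*, the lowest of them, measured -2.78, -1.84 and -2.91 (adjusted p = 0.00254) and was at least 4.29-fold lower. *FET4*, a low-affinity iron transporter, measured -4.89, -1.74 and -1.28 (-2.30 ± 0.45, adjusted p = 0.00579). The regulator gene *AFT1* measured 0.39, -1.44 and -1.32 (-0.92 ± 0.22, adjusted p = 0.0155). Of the high-affinity uptake system the oxidase gene *FET3* was lower (-0.63 ± 0.16, adjusted p = 0.0249) and the permease gene *FTR1* was at 0.03 ± 0.27 (adjusted p = 0.958). *ENB1*, the enterobactin transporter (1.06 ± 0.21), and *TIS11*, which degrades mRNAs under iron shortage (1.68, 0.61 and 0.50, fitted at 0.82 ± 0.23), were higher. In the same couple on day 4 *TIS11* was at -1.52.

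Both copper transporters of the plasma membrane were lower. *CTR1* measured -2.27, -1.30 and -1.87 (-1.83 ± 0.22, adjusted p = 0.000749), and *CTR3* -4.62, -1.59 and -1.95 (-2.53 ± 0.25, adjusted p = 0.000231). With BR-RF signals under the background they were at least 1.41-fold and 1.93-fold lower. The zinc transporter gene *ZRT1* measured -1.55, -0.84 and -1.26 (-1.23 ± 0.28, adjusted p = 0.0149), and the metallothionein gene *CUP1-1*, present in tandem copies, was at -0.72 ± 0.18. *IZH4*, a membrane protein gene of zinc homeostasis on the left arm of chromosome XV, was higher, at 2.49, 1.08 and 1.53 (1.66 ± 0.20, adjusted p = 0.000762), and lost its call when spots under the local background were left out (0.92, adjusted p = 0.0502). That filter also removed *FIT1*, *FIT2*, *FIT3*, *FET4*, *TIS11*, *CTR1* and *CTR3* from the test. *TIS11* lost its call without array 1 (0.56), *FET3* without array 1 (-0.52), with median centring (-0.60) and when this couple and day was fitted alone, and *AFT1* without array 2 (-0.47) and without spots under the background (-0.55). *CUP1-1* lost its call with a loess curve for each print block (-0.51) and when this couple and day was fitted alone. *ENB1*, *ZRT1*, *AFT1* and *FET3* lost theirs without array 3 (0.90, -1.19, -0.52 and -0.55), when 6 iron and 3 copper and zinc genes were called lower.

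Among cell wall genes calls were frequent in the seripauperin family. Of 27 genes of the *PAU*, *TIR* and *DAN* families, which encode mannoproteins made under low oxygen or cold, 15 (55.6%) were called lower (median -0.79). *PAU3* measured -1.46, -1.85 and -1.86 (-1.76 ± 0.29, adjusted p = 0.00347), *PAU12* -0.60, -2.00 and -2.07 (-1.69 ± 0.27) and *PAU1* -0.97, -1.44 and -1.72 (-1.46 ± 0.18). The *PAU* genes are so alike that their spots may read the same RNAs, so that their number overstates the evidence, and without array 3 6 of the 27 were called. *TIP1*, a cold-shock mannoprotein gene of the same kind, measured -2.67, -1.89 and -2.94 and was 6.1-fold lower (-2.61 ± 0.23, adjusted p = 0.000127). *SPI1*, a wall protein gene induced in stationary phase, measured -1.33, -2.15 and -1.93 (-1.83 ± 0.24). *MID2*, a sensor of wall stress, measured -1.35, -1.60 and -1.69 (-1.58 ± 0.20, at least 1.42-fold lower), and *CHS5*, needed to bring chitin synthase to the surface, was 2.00-fold lower. *MID2* was the 1 call among 24 genes of the cell wall integrity pathway (4.17%). *CHS5* was 1 of 2 called lower among 30 genes of wall glucan and chitin (6.67%). Both shares were below the 7.44% of all genes, and both genes lie on the right arm of chromosome XII. *CWP1*, another wall mannoprotein gene, was called higher (0.64 ± 0.16) and lost its call under 5 settings (0.44 to 0.64), among them without array 1 and without array 3.

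*FLO11* did not differ detectably between the 2 strains with structured colonies. It had no value on array 1 and measured 0.00 and 0.03 on arrays 2 and 3 (0.02 ± 0.14, adjusted p = 0.96). *MGA1*, a heat-shock-factor-like gene of filamentous growth, was the called member of 20 genes for flocculins and their relatives, at -1.45, -1.51 and -0.92 (-1.20 ± 0.19, adjusted p = 0.00221). *TEC1*, a transcription factor of filamentous growth, was below 0 on every array, at -1.44, -0.57 and -0.37 (-0.69 ± 0.24), and did not pass the test (adjusted p = 0.0846). *BSC1*, a relative of *FLO11*, measured -1.35, -1.29 and -0.66 (-0.99 ± 0.40, adjusted p = 0.128), and the wall asparaginase gene *ASP3-1*, present in near-identical copies, -1.02, -0.91 and -0.50 (-0.73 ± 0.28, adjusted p = 0.103). Neither passed the test, although both were called with the deposited ratios (-1.02 and -0.87). *MNN9*, which extends N-linked mannans in the Golgi, was at 0.11 ± 0.21 (adjusted p = 0.773), and the histone deacetylase gene *HDA1* at -0.33 ± 0.17 (adjusted p = 0.239). Of 28 genes of N-glycosylation 3 (10.7%, against 7.8% of all genes) were called higher. Among them was *STT3*, the catalytic subunit of oligosaccharyltransferase, at 0.90, 1.32 and 1.25 (1.18 ± 0.22, adjusted p = 0.00452). Of 23 genes of Golgi mannosylation *MNN2* was called lower (-1.13 ± 0.26). Without array 3 *STT3* and *MNN2* lost their calls (1.11 and -1.19). The 7 O-mannosyltransferase genes tested lay between -0.50 and -0.07, and limma called 0 of them (0 at an unadjusted p under 0.05).

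Among genes of protein turnover and DNA precursors, 6 of 38 proteasome genes (15.8%) were higher and *RPN4*, which encodes their activator, was lower. *RPN4* measured -1.87, -1.09 and -1.12 (-1.30 ± 0.20, adjusted p = 0.00209). *PRE6*, a subunit of the proteasome core, measured 1.53, 1.28 and 1.26 (1.33 ± 0.22), and the core subunits *PUP1* and *PRE2* were at 0.75 ± 0.15 and 0.73 ± 0.15. Without array 3, 1 proteasome gene was called higher, and *PUP1* and *PRE2* also lost their calls when this couple and day was fitted alone. Of 40 chaperone genes of the heat shock response 5 (12.5%, against 7.44% of all genes) were lower and 1 (2.5%) higher (median -0.27). The stress activator gene *MSN4* measured -1.27, -1.57 and -1.32 (-1.37 ± 0.24, adjusted p = 0.00379). It is no chaperone gene and belongs to a list of 37 general stress genes. Of that list 6 (16.2%) were called lower and 3 (8.11%) higher, with medians of 0.14, -0.51 and -0.33 on arrays 1, 2 and 3. With a dye term 1 of the 40 chaperone genes was lower (3 without array 2). *HSP26*, the small heat shock protein gene, measured 0.91, -1.62 and -1.94 and was called at -1.15 ± 0.34 with a signal under the background. It lost its call under 5 settings (-0.34 with the deposited ratios). The ribonucleotide reductase genes *RNR2*, *RNR4* and *RNR3* were higher, with *RNR2* at 2.08, 1.05 and 1.68 (1.62 ± 0.20, adjusted p = 0.000841), *RNR4* at 1.31 ± 0.22 and *RNR3* at 1.09 ± 0.21. They were the 3 calls among 34 genes of cell cycle and replication, whose median was 0.01. That share of 8.82% is close to the 7.8% of all genes, and *RNR3* lies on chromosome IX. *RNR4* lost its call with a loess curve for each print block (0.87, adjusted p = 0.0627), and *RNR3* without array 2 or array 3 (0.83 and 0.78). Of 35 autophagy genes 3 were higher, a share of 8.57% that is close to the 7.8% of all genes. Outside chromosome IX, the left arm of XV and the right arm of XII 1 of 26 was higher. The called genes included *ATG34*, a receptor for vacuolar enzymes, at 1.55, 1.31 and 1.65 (1.54 ± 0.15), and *ATG41*, at 1.59, 1.30 and 1.46 (1.45 ± 0.15, adjusted p = 0.000385).

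The gene with the highest ratio belonged to no list. *YDL114W*, a putative short-chain dehydrogenase of unknown function, measured 4.90, 4.09 and 3.40 and, with a BR-F signal under the local background, was at least 5.41-fold higher in BR-RF (3.95 ± 0.53, adjusted p = 0.00135). It was at 3.08 on day 4, and over BR-S it was at 2.16 in BR-RF and -1.12 in BR-F on day 7. *VAS1*, the valyl-tRNA synthetase of cytosol and mitochondria, measured 2.08, 1.70 and 2.15 (2.02 ± 0.24, adjusted p = 0.000728, or 4.05-fold), against -0.69 on day 4.

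The same couple was compared on day 4, to ask which differences were already there in younger colonies. On day 4, 292 of 4959 genes (5.89%) were called, 140 (2.82%) higher and 152 (3.07%) lower. Of the genes called on day 7, 748 were also measured on day 4, 667 of them had the same sign there, 224 were called in the same direction and 4 in the opposite one. The replicates of day 4 correlated less across genes (r = 0.354) than those of day 7 (r = 0.583), so that the smaller number of calls cannot be told apart from a noisier day. A test of the difference between the days called 25 of 4783 genes (0.523%), with 17 higher and 8 lower on day 7. *JLP1* differed most, at -2.45 ± 0.31 on day 4 and 2.53 ± 0.31 on day 7 (difference 4.98, adjusted p = 0.00122). Genes lower on day 7 than on day 4 included *CTR1*, at 0.01 on day 4 and -1.83 on day 7 (difference -1.84, adjusted p = 0.0343), *DIP5* (difference -1.61, adjusted p = 0.0175) and *DUT1*, the dUTPase, at -0.36 on day 4 and -2.32 on day 7 (difference -1.96, adjusted p = 0.0175) with a signal under the background. On array 3 the dyes were reversed between the days, so dye effects of single genes enter this difference. With a gene-specific dye term 3 of the 25 differences were called (*JLP1*, *VAS1* and *MET17*), and without array 3 of day 7 1 difference was called.

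Ratios also depended on where a gene lies. On the left arm of chromosome XV 62 of 143 genes tested (43.4%) were higher and 2 lower, with a median of 0.64, and the medians on arrays 1, 2 and 3 were 0.98, 0.49 and 0.44. The excess was present on day 4 (median 0.57), and against BR-S the day 7 medians were 0.55 for BR-RF and -0.02 for BR-F. Neighbouring genes of unrelated function were high there, as around *RPS15* (2.13), whose neighbours *NOP12*, a ribosome assembly factor, *RPP2A* and *PRE6* were at 1.39 ± 0.16, 1.65 ± 0.22 and 1.33 ± 0.22. *MET22* (1.83), *PEX11*, a peroxisome division gene (1.70 ± 0.21), *BRX1* (1.55), *CDC33* (1.61), *IZH4* (1.66) and *ATG34* (1.54) also lie on this arm, as do *MDH2* (0.52), *ENB1* (1.06) and *SPO21* (1.07). On the left arm of chromosome IX 39 of 158 genes (24.7%) were higher and 5 lower (median 0.37), and on its right arm 9 of 38 (23.7%) and 2. The medians of chromosome IX were 0.60, 0.23 and 0.25 on the 3 arrays. Next to *SOA1* and *YIL165C* on that chromosome, *NIT1* (1.10 ± 0.16) and the invertase gene *SUC2* (1.16 ± 0.24), chosen after their values were seen, were higher, *SUC2* without a call when array 3 was left out (1.14). On the right arm of chromosome XII, where *ERG3* lies, 36 of 358 genes (10.1%) were higher and 41 (11.5%) lower. Without chromosome IX, the left arm of XV and the right arm of XII, 67 of the 105 remaining ribosomal protein genes and 12 of the 28 remaining sulfate and methionine genes were called higher, with medians of 0.89 and 0.48.

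The share of genes called lower was larger at chromosome ends, a difference that was not tested. Of 250 genes tested among the 10 outermost at each end 62 (24.8%) were lower and 13 (5.2%) higher, against 6.53% and 7.94% of the other 4734, and the medians were -0.25 and -0.01. The outermost genes were at -0.43, -0.21 and -0.17 on arrays 1, 2 and 3 and at -0.20 on day 4. Against BR-S their day 7 medians were 0.25 for BR-F and -0.04 for BR-RF. Members of the *COS* family, which lie near the ends and resemble each other, were lower in 4 of 12 cases (2 without array 2), with *COS8* at -0.61, -1.35 and -1.17 (-1.07 ± 0.16, adjusted p = 0.00149).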

How the data were processed

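Poly(A) RNA from colonies was labelled with Cy3 or Cy5 and hybridised to spotted open reading frame arrays of 13056 spots, of which 11146 carried a gene name (5543 genes). Per the file headers, the deposited files hold the median intensity of each spot and channel after local background subtraction, as measured by TIGR Spotfinder. The authors also deposited a table of log2 ratios normalised by LOWESS in TIGR MIDAS, which was used as an alternative.

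From the intensities, log2 ratios were computed for spots above 0 in both channels and not graded poor, normalised by loess within each array (span 0.3, unnamed spots with weight 0), turned to BR-RF over BR-F and averaged over the spots of a gene. Arrays 1 and 2 were averaged. The 12 biological replicates of all 6 couples and days, which share 1 estimate of the spread, were fitted with limma 3.58.1 in R 4.3.3 (lmFit, eBayes, two-sided, Benjamini-Hochberg over genes measured in both biological replicates), with 6 residual and 4.639 prior degrees of freedom. The labels do not name separate cultures for the replicates, so p-values measure only the spread between these samples, which may be technical. The number of arrays limits the precision, and the median SE was 0.191 on the log2 scale. Between 9184 and 10219 named spots were used on the 3 arrays of day 7, of which 76 to 215 were saturated. The procedure was tested on simulated data.

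Gene names, chromosomes and gene order came from the RefSeq annotation, of which no coordinate is printed. Genes named in the text are the 15 called genes with the highest and the 15 with the lowest ratio among those of 1 sign on all 3 arrays, up to 8 called members of each of 73 lists, 6 genes of colony biology whatever their value, and members that define a list's function. *IMA5*, *MHT1*, *NOP12*, *NIT1*, *SUC2* and *DUT1* fall outside this rule and were chosen after their values were seen. The members and lists were chosen with earlier results of these data known. Alternatives were the deposited ratios, median centring, loess by print block, an offset of 50, leaving out spots under the background, keeping poor spots, genes on all 3 arrays, 3 arrays as 3 replicates, this couple and day alone, a dye term, leaving out each array, and the methods' threshold of 1.5-fold with an unadjusted p. Least folds of genes under the background and the counts without 3 chromosomal regions or without chromosomes I to III were added after the data were seen. Sequences were not used here.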

Additional observations from a re-analysis of the deposited data

Results flagged for a closer look

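The ratio of BR-RF over BR-F was called different between day 7 and day 4, by a test of the difference itself, for 25 genes. Differences are given as day 7 minus day 4 on the log2 scale. Among sulfur genes the differences were 4.98 for *JLP1*, 2.34 for *YIL165C*, 2.33 for *YCT1*, 1.87 for *MET17*, 1.71 for *MET2*, 1.69 for *MET3*, 1.40 for *MUP1* and 1.20 for *HOM6*, and each of these ratios was below 0 on day 4. *YLL056C* and *SEO1*, which are in no list, differed by 2.90 and 2.49. Other genes higher on day 7 were *VAS1* (2.71), *TIS11* (2.34), *YLR036C* (1.89), *ATG41* (1.65), *BNA3*, of NAD synthesis (1.41), *ERG3* (1.37) and *FMO1*, a flavin monooxygenase (1.14). The genes lower on day 7 were *DUT1* (-1.96), *CTR1* (-1.84), *SLU7*, of splicing (-1.70), *DIP5* (-1.61), *FMP45* (-1.45), *ECM2*, of splicing (-1.41), *DLD1* (-1.39) and *ARO5* (-1.34). With a gene-specific dye term *JLP1*, *VAS1* and *MET17* were called (adjusted p = 0.00885, 0.0349 and 0.0349, limma with Benjamini-Hochberg adjustment). *FMO1*, at 0.49 on day 7, lost its day 7 call under 7 settings. Groups held 2 biological replicates, too few to look for single samples that stand apart.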

How the results depend on the processing

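The counts of 389 genes higher and 371 lower stayed within 1.5 times under most alternatives, with 429 and 388 from the deposited ratios. The median of none of the 22 lists plotted changed sign under any of these alternatives. Medians near 0 of other lists could do so, as for the amino acid permeases outside nitrogen repression (0.18, and -0.12 without array 1). Without the left arm of chromosome XV, chromosome IX and the right arm of chromosome XII, chosen after seeing the data, 227 genes were higher and 306 lower. Loess by print block gave 579 lower genes and leaving out spots under the background gave 218. Of the 760 calls 595 were kept with a dye term, 542 with this couple and day alone and 441 without spots under the background. Leaving out array 3 removes biological replicate 2, so that a call lost there need not mean another ratio. Leaving out 1 array at a time gave 236 to 469 higher and 250 to 437 lower genes, and 670, 561 and 389 of the 760 calls were kept without arrays 1, 2 and 3. The 25 differences between the days became 15 with median centring, 58 with loess by print block, 16 without spots under the background, 45 with the arrays as 3 replicates, 3 with a dye term and 384 at 1.5-fold with an unadjusted p. They ranged from 1 to 28 when an array of day 7 was left out and from 8 to 42 when one of day 4 was, and could not be computed from this couple and day alone. The causes were not tested. Of the 180 genes named in the text or plotted by name, 163 were called, and 106 of these kept their call under every setting that tested them, while 45 lost it without array 3 and 28 under a setting other than leaving out an array. No paired analysis was possible because each array already holds both strains and the replicate numbers only mark arrays. Dim spots limit both size and direction: 217 called genes could not be tested without spots under the background, and of the 89 whose lower strain stayed under it, 29 had a ratio of the other sign with that signal raised to the background.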

Other observations

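Several genes of membrane lipids that the comparison above did not cover were called on day 7. *ITR1*, the main inositol transporter, measured -1.40, -1.15 and -1.82 in BR-RF over BR-F (-1.55 ± 0.23, adjusted p = 0.00173), and *CHO2*, which methylates phosphatidylethanolamine, was at -1.13 ± 0.22. *SCS7*, which hydroxylates the fatty acids of ceramides, measured -1.73, -1.15 and -0.98 (-1.21 ± 0.16), while *RSB1*, linked to the export of sphingoid bases, measured 1.33, 1.44 and 0.90 (1.14 ± 0.18). Of 18 genes of fatty acid synthesis and elongation limma called 0, and 1 was lower at an unadjusted p under 0.05.

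Of 12 genes of pyrimidine synthesis 3 (25.0%) were called higher and 3 (25.0%) lower, and of 25 of purine synthesis 2 (8.0%) and 2 (8.0%). Over all genes 7.8% were higher and 7.44% lower. The CTP synthase genes *URA7* and *URA8* were lower, at -1.69 ± 0.27 and -0.94 ± 0.20, and *FUR1*, *URA6* and *URA5*, of uracil salvage, UMP phosphorylation and orotate use, were higher, at 0.86 ± 0.22, 0.75 ± 0.14 (with a BR-F signal under the background) and 0.71 ± 0.14. Of the vitamin B6 genes *SNZ1* and *SNZ2* were at -1.29 ± 0.23 and -1.07 ± 0.17, though *SNZ2* has a near-identical copy in *SNZ3* (-0.78). Of 19 genes of trehalose and glycogen 4 were called lower, among them the glycogen branching enzyme gene *GLC3*, at -1.08, -1.02 and -1.10 (-1.08 ± 0.30, adjusted p = 0.0338), and 3 without array 3, *GLC3* not among them (-1.05). Without array 3 *URA8*, *SNZ1* and *SNZ3* lost their calls too, and *URA8* without array 1. *SER33*, of serine synthesis, was higher, at 1.45, 0.96 and 1.54 (1.37 ± 0.21), and lies on chromosome IX.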
